A study of Mus musculus with 53 samples.

Results

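The 10 genes described here encode the enzymes and carriers with which skeletal muscle makes, stores and shuttles energy, together with the brain isoforms of 2 of them. They were chosen by name: creatine kinase M and B (Ckm, Ckb), enolase 3 and 2 (Eno3, Eno2), muscle glycogen phosphorylase (Pygm), muscle phosphoglycerate mutase (Pgam2), muscle AMP deaminase (Ampd1), carbonic anhydrase 3 (Car3), myoglobin (Mb) and the muscle form of cytochrome oxidase subunit 6A (Cox6a2). All 10 were found, among 55573 genes in the bulk RNA tables of the mouse cerebellum at postnatal day 2 (P2) and among 57010 genes in the single-cell tables at P7. Several of the enzymes exist as tissue isoforms from separate genes. Creatine kinase carries phosphate between ATP and creatine, and brain uses the B form where mature muscle uses the M form. Enolase, a glycolytic enzyme, has a neuronal form (Eno2) and a muscle form (Eno3). During muscle differentiation the M form of creatine kinase and the muscle enolase are switched on while the cells draw more on glycogen, myoglobin and oxidative subunits specific to contracting fibres. The neonatal cerebellum holds granule cell progenitors, granule neurons, glia and other neurons, and has no skeletal muscle fibres of its own.

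Insm1 and, separately, Tead1 and Tead2 were deleted with Cre recombinase driven by Atoh1, a gene of rhombic lip progenitors and of the granule cells they give rise to. Insm1 encodes a zinc finger repressor, and Tead1 and Tead2 encode DNA-binding factors of the Hippo pathway. At P2 the groups were Insm1fl/fl controls (n = 4), Atoh1Cre; Insm1fl/fl mutants (n = 4), Tead1fl/fl; Tead2fl/fl controls (n = 3) and Atoh1Cre; Tead1fl/fl; Tead2fl/fl mutants (n = 4), each library being total RNA of 1 whole cerebellum. At P7 the same 4 genotypes had 2, 3, 2 and 3 single-cell libraries, each from 1 cerebellum. Controls carry the floxed alleles and are labelled without Cre, so an effect of Cre itself cannot be told apart from that of the deletion, and other rhombic lip cells besides granule cells can carry the deletion. The labels put the P2 libraries of Insm1 and of Tead1/2 in different batches, so at P2 allele and batch cannot be told apart in a comparison of both alleles. The sex read from the libraries was not balanced between mutants and controls at P2. Nor was it for Tead1/2 at P7, where both controls were female and mutants 1 and 2 were male. At P7 libraries numbered 1 held all lobules while those numbered 2 and 3 lacked lobules IX and X.

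The P2 libraries held 28066700 to 64518800 expected counts, and the P7 libraries 90269989 to 211707202 unique molecular identifiers (UMIs) in 4779 to 10710 cells each. Values below are counts scaled to library size, as CPM with TMM factors, so they compare libraries for 1 gene and not genes with each other. Insm1 lay at 30.8 to 71.5 CPM in P2 controls and 8.39 to 16.1 in mutants, and at 56.6 to 58.5 against 5.73 to 14.4 at P7. Tead2 lay at 29.8 to 32.0 CPM in Tead1/2 controls against 7.31 to 9.09 in mutants at P7, but at 21.5 to 25.7 against 17.6 to 26.2 at P2. The deleted part of Tead1 is not given in the sources used here, and its level (33.4 to 54.2 against 38.1 to 50.7 CPM at P2, 626 to 633 against 1132 to 1319 at P7) checks nothing. The library labelled Tead1/2 mutant 4 held the 26.2 CPM of Tead2 at P2, above each Tead1/2 control, and stood near the controls in most genes described here, so each P2 Tead1/2 result is given with and without it. Because the levels of these genes were part of the reason to set it apart, p-values without it are no independent support for their change. At P2 it was also the only Tead1/2 mutant read as female. The summed level of 14 skeletal muscle markers was 20.8 to 46.5 CPM in Insm1 controls, 171 to 284 in Insm1 mutants, 23.4 to 25.4 in Tead1/2 controls and 20 to 240 in Tead1/2 mutants at P2. At P7 it was 60.0 to 76.5, 5467 to 6505, 54.2 to 65.3 and 12427 to 19635 CPM, and none of the 14 was at 0 in every library of a group. Granule lineage genes were present throughout at P2, with Atoh1 at 16.3 to 30.1 CPM and Neurod1 at 157 to 219, while at P7 Neurod1 lay at 513 to 525 CPM in Insm1 controls, 218 to 291 in Insm1 mutants, 403 to 438 in Tead1/2 controls and 127 to 184 in Tead1/2 mutants.

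The sequences just before the start sites of the creatine kinase and enolase pairs are shown because these pairs carry the contrast between muscle and brain isoforms. Windows of 250 bases from RefSeq (GRCm38.p6) were found for 7 of the 10 genes, and the bases in capitals are matches to CANNTG, the E-box letters that basic helix-loop-helix factors read, or to GGAATG, the core letters of the element that TEAD factors read.
Ckm, chr7:19410844-19411093, plus strand: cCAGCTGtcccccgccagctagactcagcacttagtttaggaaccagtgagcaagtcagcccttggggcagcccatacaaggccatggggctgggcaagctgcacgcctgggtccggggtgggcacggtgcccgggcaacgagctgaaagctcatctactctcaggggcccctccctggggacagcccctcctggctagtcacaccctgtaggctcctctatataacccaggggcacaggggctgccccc
Ckb, chr12:111672339-111672588, minus strand: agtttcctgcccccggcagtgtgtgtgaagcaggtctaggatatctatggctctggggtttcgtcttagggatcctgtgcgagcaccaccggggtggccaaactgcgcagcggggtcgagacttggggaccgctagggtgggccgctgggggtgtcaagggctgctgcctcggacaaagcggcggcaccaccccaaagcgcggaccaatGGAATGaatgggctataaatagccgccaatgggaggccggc
Eno3, chr11:70656926-70657175, plus strand: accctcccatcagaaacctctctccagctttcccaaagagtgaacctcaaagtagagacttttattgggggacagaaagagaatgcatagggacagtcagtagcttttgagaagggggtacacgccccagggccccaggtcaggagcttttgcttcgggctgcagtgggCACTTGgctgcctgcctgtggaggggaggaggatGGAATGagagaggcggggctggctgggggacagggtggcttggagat
Eno2, chr6:124769674-124769923, minus strand: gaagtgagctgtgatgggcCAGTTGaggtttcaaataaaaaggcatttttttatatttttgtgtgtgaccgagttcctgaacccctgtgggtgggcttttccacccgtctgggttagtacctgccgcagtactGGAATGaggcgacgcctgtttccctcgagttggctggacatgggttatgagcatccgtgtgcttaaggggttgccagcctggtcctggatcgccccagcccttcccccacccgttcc
The letters were searched on both strands, and no match overlapped another in these windows. CANNTG occurs in 66.2% of the 32841 windows of this length and GGAATG in 12.6%. The Ckm window holds 1 CANNTG, 249 bases before the start, and no GGAATG. The Ckb window holds GGAATG 41 bases before the start and no CANNTG. The Eno3 window, which lies inside the annotated span of the gene, holds GGAATG 47 and CANNTG 81 bases before the start, and the Eno2 window holds them at 117 and 231. Of the other windows, those of Pgam2 and Pygm hold 5 and 2 matches to CANNTG and none to GGAATG. A match describes the letters in this window only.

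Ckm (ENSMUSG00000030399.2, chr7:19411094-19421583 in GRCm38.p6) had the largest change of the 10 at P2 and came from almost no signal. In Insm1 controls it had 0, 1, 1 and 1 expected counts, that is 0, 0.0269, 0.0303 and 0.0298 CPM, and in Insm1 mutants 54, 19, 13 and 15, that is 1.31, 0.551, 0.433 and 0.473 CPM. Each of the 4 mutants lay above each of the 4 controls. The log2 change was 4.89 ± 0.66 (SE, edgeR quasi-likelihood adjusted p = 0.00788), and the summed counts, 101 against 3, give a depth-adjusted ratio of 35.6 (95% interval 11.8 to 175, counting error only). In Tead1/2 controls Ckm lay at 0.0501, 0.190 and 0.0683 CPM and in Tead1/2 mutants at 0.426, 1.18, 0.727 and 0, the last in the library labelled Tead1/2 mutant 4. The log2 change was 2.47 ± 0.91 and was not called (adjusted p = 0.181), and without that library it was 2.82 (adjusted p = 0.0261). A fit without the low-count filter also called it (adjusted p = 0.0021). Ckm passed that filter through the mutants alone in each comparison, so it could be called there only as a rise. In these whole-tissue RNA samples, more cells of a type and more RNA per cell cannot be told apart.

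Ckb (ENSMUSG00000001270.9, chr12:111669355-111672338), the brain form of the same enzyme, was abundant and did not follow Ckm at P2. It lay at 801, 772, 880 and 714 CPM in Insm1 controls and at 827, 702, 753 and 797 in Insm1 mutants, and the groups overlapped (log2 change -0.03 ± 0.08, adjusted p = 0.935). In Tead1/2 controls it lay at 852, 1014 and 1016 CPM and in mutants at 787, 827, 810 and 902, the highest mutant being the library labelled Tead1/2 mutant 4. The log2 change there, -0.24 ± 0.08, was not called (adjusted p = 0.145). It was -0.28 without that library (adjusted p = 0.0892), and DESeq2 and a fit without the low-count filter called it (adjusted p = 0.0483 and 0.0287).

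Neither enolase passed the test at P2. Eno3 (ENSMUSG00000060600.15, chr11:70653125-70662513) lay at 3.76, 2.55, 3.28 and 2.83 CPM in Insm1 controls and at 5.31, 4.85, 3.90 and 4.42 in mutants, with no overlap (log2 change 0.59 ± 0.15, adjusted p = 0.196). In Tead1/2 libraries it lay at 3.43, 3.82 and 3.38 CPM in controls and at 4.17, 4.88, 4.36 and 3.32 in mutants, the lowest again in the library labelled Tead1/2 mutant 4 (log2 change 0.21 ± 0.14, adjusted p = 0.415, and 0.30 without it, adjusted p = 0.195). Eno2 (ENSMUSG00000004267.16, chr6:124760053-124769673), the neuronal form, ranged from 45.9 to 48.5 CPM in Insm1 controls and from 45.9 to 51.1 in mutants (log2 change 0.03 ± 0.06, adjusted p = 0.887). It ranged from 39.5 to 53.0 CPM in Tead1/2 controls and from 43.6 to 45.9 in mutants (log2 change -0.08, adjusted p = 0.586, and -0.07 without the library labelled Tead1/2 mutant 4, adjusted p = 0.669).

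The genes that feed glycolysis and keep the adenylate pool were not called at P2. Pygm (ENSMUSG00000032648.14, chr19:6384408-6398464), which releases glucose 1-phosphate from glycogen in muscle, lay at 2.23 to 3.16 CPM in Insm1 controls, 2.23 to 2.94 in Insm1 mutants, 2.09 to 2.56 in Tead1/2 controls and 1.97 to 2.57 in Tead1/2 mutants (log2 changes -0.02 and 0.01, adjusted p = 0.978 and 0.973). Without the library labelled Tead1/2 mutant 4 the Tead1/2 change of Pygm was 0.0046 (adjusted p = 0.992). Pgam2 (ENSMUSG00000020475.3, chr11:5801637-5803796), the muscle form of the enzyme just before enolase, lay at 0.217, 0.269, 0.152 and 0.119 CPM in Insm1 controls and at 0.679, 0.203, 0.233 and 0.473 in mutants, and the groups overlapped. Its counts, 57 against 28, give a ratio of 2.15 (95% interval 1.35 to 3.51), and it did not pass the filter on low counts in that comparison. In Tead1/2 libraries the ratio was 1.05 (0.656 to 1.72), and 1.13 (0.691 to 1.86) without the library labelled Tead1/2 mutant 4. Ampd1 (ENSMUSG00000070385.12, chr3:103073897-103099720), which deaminates AMP in working muscle, had 19 counts in all Insm1 mutants against 6 in all controls, a ratio of 3.35 (1.29 to 10.2), and 20 against 4 for Tead1/2, a ratio of 3.23 (1.08 to 13.0), or 3.74 (1.24 to 15.1) without that library. It passed the filter in neither comparison.

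Car3 and Cox6a2 were the members besides Ckm with the clearest values at P2. Car3 (ENSMUSG00000027559.5, chr3:14863538-14872381), a carbonic anhydrase abundant in slow muscle fibres, in fat and in liver, lay at 4.84, 4.27, 3.58 and 2.15 CPM in Insm1 controls and at 20.01, 17.0, 13.9 and 14.0 in Insm1 mutants. Each mutant lay above each control, and Car3 rose by 2.13 ± 0.22 on the log2 scale (adjusted p = 0.00259). In Tead1/2 controls it lay at 2.68, 3.37 and 3.04 CPM and in mutants at 16.6, 17.9, 19.2 and 4.54. All 4 Tead1/2 mutants lay above the controls, the library labelled Tead1/2 mutant 4 only just, and the change of 2.25 ± 0.41 was not called (adjusted p = 0.0898). Without that library the change was 2.53 (adjusted p = 2.77e-06), and with all 4 mutants DESeq2 and a fit without the low-count filter called it (adjusted p = 0.00171 and 5.52e-14).

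Cox6a2 (ENSMUSG00000030785.8, chr7:128205435-128206366) belongs to the last complex of the respiratory chain, where muscle and heart use it in place of Cox6a1. It lay at 0.193, 0.430, 0.243 and 0.149 CPM in Insm1 controls and at 1.60, 0.696, 0.733 and 0.978 in Insm1 mutants, with no overlap. The log2 change of 1.99 ± 0.38 missed the threshold (adjusted p = 0.0510), and DESeq2, a fit without the low-count filter, a fit of all 15 libraries, or leaving out Insm1 control 2 each put it past the threshold (adjusted p = 0.00133, 0.00593, 0.0330 and 0.0433). In the filtered fits of the Insm1 libraries alone, Cox6a2 passed the filter through the mutants, since among controls only Insm1 control 2 reached the filter's level. It could be called there only as a rise. In Tead1/2 controls it lay at 0.426, 0.356 and 0.273 CPM and in mutants at 1.08, 1.31, 1.12 and 0.451, the last being the library labelled Tead1/2 mutant 4. The change of 1.47 ± 0.36 was not called (adjusted p = 0.0987) and was 1.68 without that library (adjusted p = 0.00646). A fit of all 7 libraries without the low-count filter called it (adjusted p = 0.00177). Mb (ENSMUSG00000018893.15, chr15:77015487-77050668), the oxygen store of oxidative fibres, had 61 counts in Insm1 mutants against 6 in controls, a ratio of 10.7 (95% interval 4.66 to 30.4), and 44 against 10 for Tead1/2, a ratio of 2.84 (1.41 to 6.33), or 3.46 (1.72 to 7.71) without the library labelled Tead1/2 mutant 4. All 4 Insm1 mutants (0.631, 0.406, 0.233 and 0.442 CPM) lay above all controls (0 to 0.107), and Mb did not pass the filter on low counts in either comparison.

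In all, 7 of the 10 genes passed the filter for Insm1 at P2, of which 2, Ckm and Car3, were called higher and none lower, where 0.689% of the 19582 genes tested were called. For Tead1/2, 8 passed and none was called, where 0% of 20247 genes were called (4052 had an unadjusted p under 0.05, and DESeq2 called 1026). Without the library labelled Tead1/2 mutant 4, Ckm, Car3 and Cox6a2 were called higher, where 3.19% of 20234 genes were called. That library was set apart partly by these genes' own levels, so the 3 calls are no independent support for their change. With each deletion Ckm passed the filter through the mutants alone and could be called only as higher. Cox6a2 with Insm1 also passed through the mutants, since among controls only Insm1 control 2 reached the filter's level, and could be called only as higher. Among the members, 5 had all Insm1 mutants above all Insm1 controls. For Tead1/2 this held for 2 of the 10, and without the library labelled Tead1/2 mutant 4 for 5, with 1 more, Ckb, entirely below. The share of all genes separated in this way was not counted, so no result about the members is drawn from these counts. No gene was called for a difference between the 2 deletions at P2 (0% of 20837 by edgeR, 1435 at an unadjusted p under 0.05, and 14 by DESeq2), and the members' adjusted p in that test ran from 0.795 to 0.982. For Ckm the difference was 2.43 ± 1.56 on the log2 scale. None of the 7 lists of related genes (creatine shuttle, glycogen, glycolysis, purine cycle, carbonic anhydrases, cytochrome oxidase isoforms, oxidative regulators) held a called gene at P2 in either comparison. Without the library labelled Tead1/2 mutant 4, 3 list genes were called: Cox8b, another muscle oxidase subunit, at 6.96, Aldoc at 0.23 and Pfkp at -0.38.

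**Figure D1:**
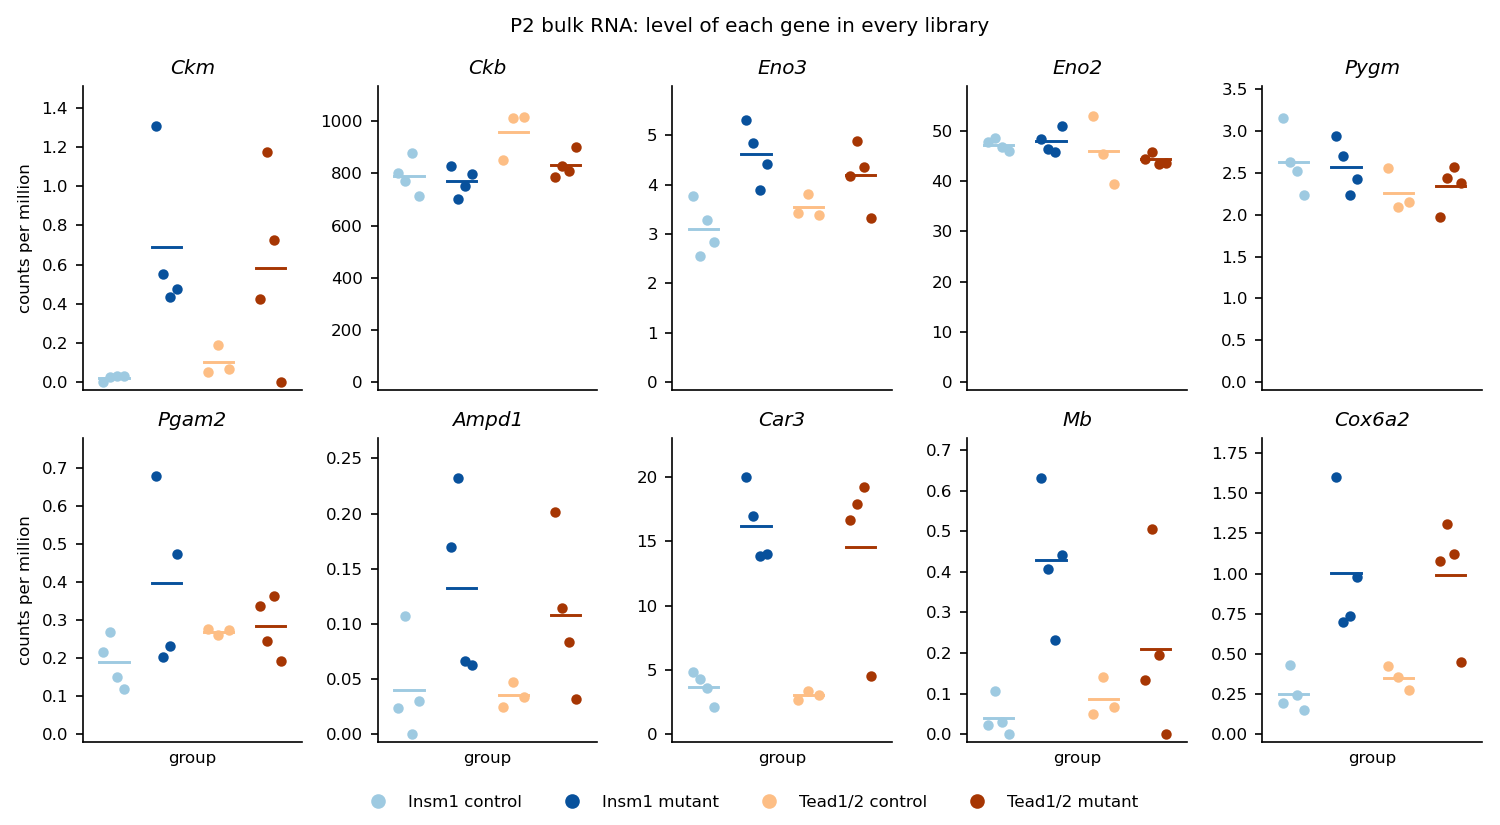
Levels of the 10 genes in CPM (vertical axes, 1 panel per gene) in each of the 15 bulk P2 libraries, by group, with 1 point per library and a bar at each group's mean. Car3 in Insm1 mutants sits between 13.9 and 20.01 CPM, above the controls' 2.15 to 4.84, while Eno2 and Ckb overlap between Insm1 groups.

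At P7 the muscle genes stood far above the controls in both mutants. Values here are UMIs summed over all cells of a library that passed the filters. Each of the 3 mutants of an allele lay above both controls for 9 of the 10 genes, and below them for Ckb. How many of all genes were separated in this way was not counted, so no result about the members is drawn from it. In the Insm1 comparison 9 of the 10 were called higher and 1 lower, where 33.9% of the 24602 genes were called, and their median change was 3.51 against 0.04 over all genes. In the Tead1/2 comparison 8 were called higher and 1 lower, where 48.6% were called, and their median change was 4.33 against 0.06 over all genes. Skeletal muscle markers moved with them, since 14 of 14 were called higher in both comparisons, and the part of these cells in the members' change is given by cell class further on.

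Ckm lay at 0.172 and 0.180 CPM in Insm1 controls (31 and 32 UMIs) and at 9.62, 12.8 and 9.67 in Insm1 mutants (1065, 1714 and 1144 UMIs). In Tead1/2 controls it lay at 0.189 and 0.134 CPM and in mutants at 39.9, 32.4 and 27.1. The log2 changes were 5.93 ± 0.25 (adjusted p = 1.1e-07) and 7.63 ± 0.28 (adjusted p = 2.03e-08). Ckb went the other way in both. It lay at 69.4 and 64.3 CPM in Insm1 controls against 40.5, 50.7 and 42.0 in mutants, a fall of 0.58 on the log2 scale (change -0.58 ± 0.13, adjusted p = 0.00672), and this call was lost without Insm1 control 1 (adjusted p = 0.0574). In Tead1/2 controls it lay at 56.8 and 62.5 CPM and in mutants at 27.2, 33.8 and 38.6 (change -0.85 ± 0.13, adjusted p = 0.000404). The summed level of 7 granule neuron markers moved with Ckb, at 4449 to 5456 CPM in Insm1 controls, 2647 to 3458 in Insm1 mutants, 4138 to 4985 in Tead1/2 controls and 1734 to 1874 in Tead1/2 mutants. None of the 7 was at 0 in every library of a group, and Ckb was also lower within the granule lineage, as given further on.

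Eno3 lay at 2.86 and 1.92 CPM in the Insm1 controls against 24.8, 29.3 and 24.1 in the mutants, and at 2.67 and 2.95 against 70.7, 57.7 and 45.5 for Tead1/2. It rose by 3.46 ± 0.23 and 4.36 ± 0.24 on the log2 scale. Eno2 also lay higher in mutants but by far less: 1.16 and 1.96 CPM in Insm1 controls against 2.24, 3.70 and 4.24, and 1.24 and 1.32 in Tead1/2 controls against 2.01, 1.80 and 2.39. Its change was called for Insm1 (1.14 ± 0.29, adjusted p = 0.0114), a call lost without Insm1 control 1 (adjusted p = 0.113), and not for Tead1/2 (0.69 ± 0.29, adjusted p = 0.0765). Unlike the creatine kinases, the brain enolase was thus on the same side of the controls as the muscle enolase.

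Of the fuel genes, Pygm lay at 2.37 and 2.37 CPM in the Insm1 controls against 14.4, 16.9 and 14.7 in the mutants, and at 2.86 and 3.15 in Tead1/2 controls against 56.6, 45.7 and 33.6. Pgam2 lay at 0.139 and 0.157 CPM against 5.52, 7.83 and 5.34 for Insm1, and at 0.153 and 0.124 against 17.5, 14.9 and 13.1 for Tead1/2. Ampd1 lay at 1.21 and 1.17 CPM against 7.60, 10.2 and 8.09, and at 1.45 and 1.32 against 32.5, 29.1 and 20.9. Tead1/2 mutants were the higher of the mutants for all 3 genes. The log2 changes were 2.704 ± 0.20 and 3.91 ± 0.21 for Pygm, 5.40 ± 0.25 and 6.74 ± 0.27 for Pgam2, and 2.87 ± 0.21 and 4.30 ± 0.22 for Ampd1, all called.

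The gas and oxidase genes rose as well. Mb lay at 0.349 and 0.264 CPM in the Insm1 controls against 11.3, 9.81 and 8.36 in the mutants, and at 0.233 and 0.237 against 22.8, 15.2 and 20.3 for Tead1/2 (log2 changes 5.01 ± 0.24 and 6.36 ± 0.26). Cox6a2 lay at 0.0942 and 0.112 CPM against 6.69, 9.11 and 6.53, and at 0.116 and 0.206 against 15.6, 16.3 and 12.1 (6.17 ± 0.28 and 6.55 ± 0.28). Unlike Mb and Cox6a2, Car3 overlapped between the mutants: 16.9, 20.7 and 20.2 CPM in Insm1 mutants against 1.60 and 1.71 in controls, and 14.7, 21.2 and 15.2 in Tead1/2 mutants against 1.08 and 1.33 (3.55 ± 0.18 and 3.83 ± 0.19). A difference between Car3 and these genes was not tested.

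**Figure D2:**
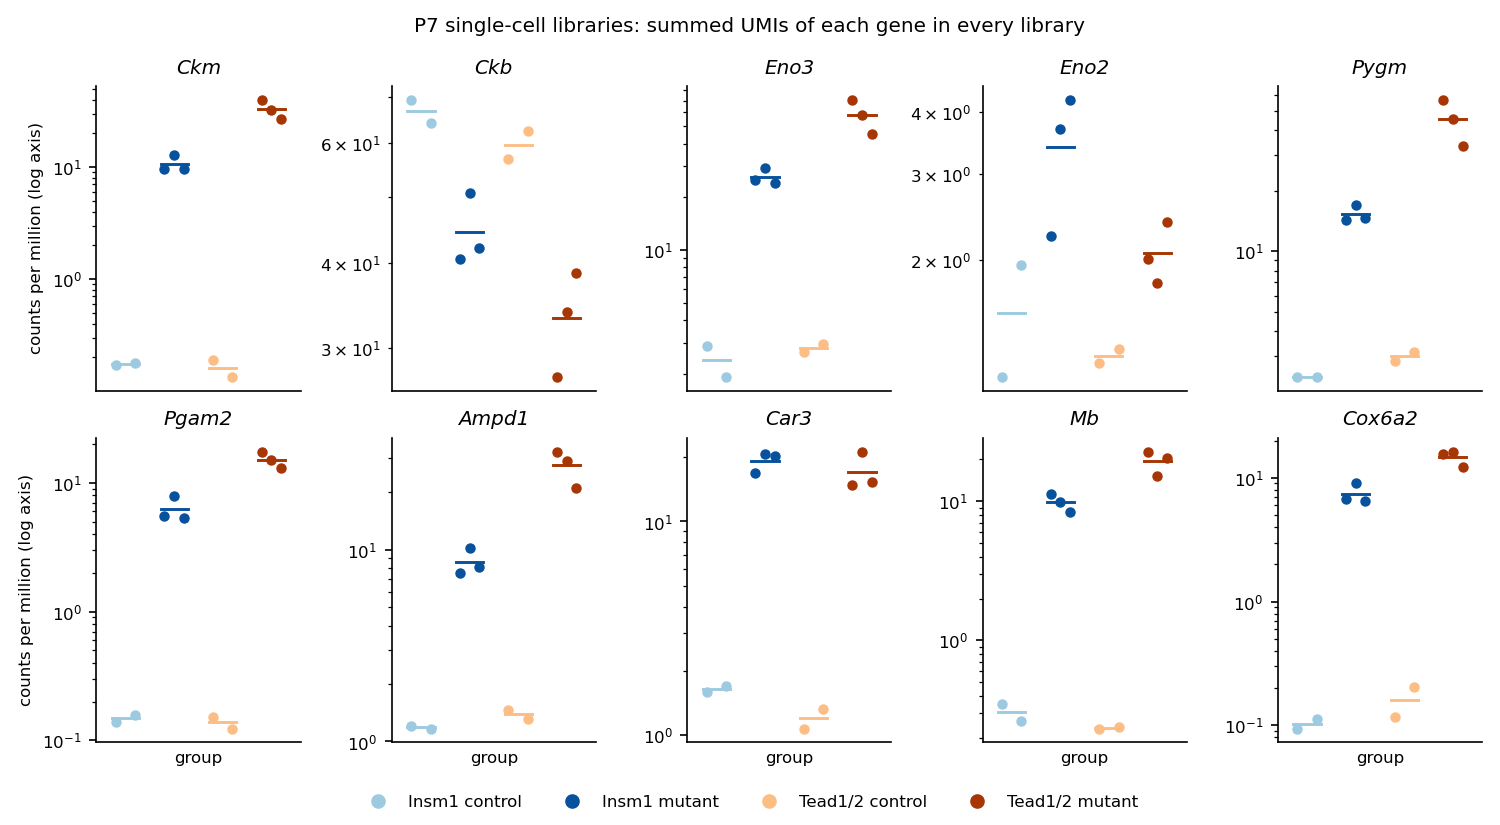
Levels of the 10 genes in CPM on a log axis (1 panel per gene) in the 10 P7 libraries, summed over all cells that passed the filters, with 1 point per library and a bar at each group's mean. For Ckm the 3 Tead1/2 mutants sit at 27.1 to 39.9 CPM, above the Insm1 mutants' 9.62 to 12.8, and for Car3 the mutants of both alleles share 1 range.

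The test of the difference between the deletions at P7 called 3.68% of genes, and among the members it called Ampd1 (-1.43 ± 0.27, adjusted p = 0.0229) and Pygm (-1.21 ± 0.26, adjusted p = 0.0375), a negative value meaning a smaller rise with Insm1. Leaving out 1 library ended the call in 6 of 10 cases for Ampd1 (adjusted p 0.0526 to 0.106) and in 8 of 10 for Pygm (0.0585 to 0.111). So did a term for sex (0.102 and 0.150) and removing the cells that Scrublet, a caller of doublets, marked (0.221 and 0.296). Ckm at -1.70 ± 0.41 (adjusted p = 0.0517), Mb at -1.35 (0.0672), Pgam2 at -1.34 (0.101) and Eno3 at -0.91 (0.116) were on the same side and not called. Cox6a2 at -0.38, Car3 at -0.28, Ckb at 0.27 and Eno2 at 0.45 were not called. Of the skeletal muscle markers, 11 of 14 were called as rising less with Insm1 in the same test.

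The non-muscle counterparts of the muscle enzymes did not move in 1 direction at P7. Pygb, the brain glycogen phosphorylase, changed by 0.30 with Insm1 (adjusted p = 0.0325) and by 0.18 with Tead1/2 (0.141). Pgam1 (0.07 and -0.21) and Ampd2 (0.15 and -0.01) were not called in either comparison. Cox6a1, the widely expressed subunit, fell with Insm1 (-0.59, adjusted p = 0.00559) and was at -0.04 with Tead1/2. Eno1, the enolase of most tissues, rose in both (0.77, adjusted p = 0.00117, and 1.29, adjusted p = 2.3e-05). None of these was called at P2.

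Other genes of the same pathways were counted from lists made with earlier results of these data known. These counts stand beside the 33.9% of all genes called with Insm1 and 48.6% with Tead1/2, which several lists do not exceed, and no list was tested as a whole. In the Insm1 comparison at P7, the creatine shuttle list had 3 of 5 genes called higher (median change 0.88), led by the mitochondrial creatine kinase of muscle, Ckmt2, at 3.85, with the creatine synthesis enzymes Gatm at 2.13 and Gamt at 0.41. Of 13 glycogen genes 8 were higher (median 0.35), with the muscle glycogen-targeting subunit Ppp1r3a at 6.23, Gys1 at 0.87 and Ppp1r3c at 0.79. Of 23 glycolysis entries 15 were higher and 2 lower (median 0.43), led by muscle fructose bisphosphatase Fbp2 at 3.56 and Aldoa at 1.72, which a second Aldoa entry opposed at -0.53. Of 6 purine cycle genes 4 were higher and 1 lower (median 0.46), with the muscle adenylosuccinate synthase Adssl1 at 3.65 and adenylate kinase Ak1 at 2.76. Of 8 carbonic anhydrases 5 were higher (median 0.99), led by Car12 at 2.63, Car2 at 1.15 and Car14 at 1.08. Oxidase and carrier isoforms had 1 of 9 higher, Cox8b at 5.20, and 2 lower, Cox6a1 at -0.59 and Cox7a2 at -0.37 (median 0.00). Oxidative regulators had 4 of 8 higher, led by the muscle AMP kinase subunit Prkag3 at 5.81 and the coactivator Ppargc1b at 2.73, and 1 lower, Nrf1 at -0.26 (median 0.51).

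In the Tead1/2 comparison the creatine shuttle had 3 of 5 higher (median 1.07, Ckmt2 at 6.16, Gatm at 2.85, Gamt at 1.07). The glycogen list had 9 higher and 1 lower of 13 (median 0.54, Ppp1r3a at 8.15, Gys1 at 1.65) and glycolysis 13 higher and 5 lower of 23 (median 0.43, Fbp2 at 3.78, Pfkm at 1.62). The purine cycle had 3 higher and 1 lower of 6 (median 0.38, Adssl1 at 4.46, Ak1 at 4.17). Oxidase and carrier isoforms had 7 of 9 higher (median 0.56, Cox8b at 6.49, Cox7a1 at 1.05) and oxidative regulators 6 higher and 2 lower of 8 (median 0.39, Prkag3 at 7.56, Ppargc1b at 3.62, Nrf1 at -0.44). Carbonic anhydrases had 2 of 8 higher, Car14 at 1.77 and Car12 at 0.72 (median 0.44).

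**Figure D3:**
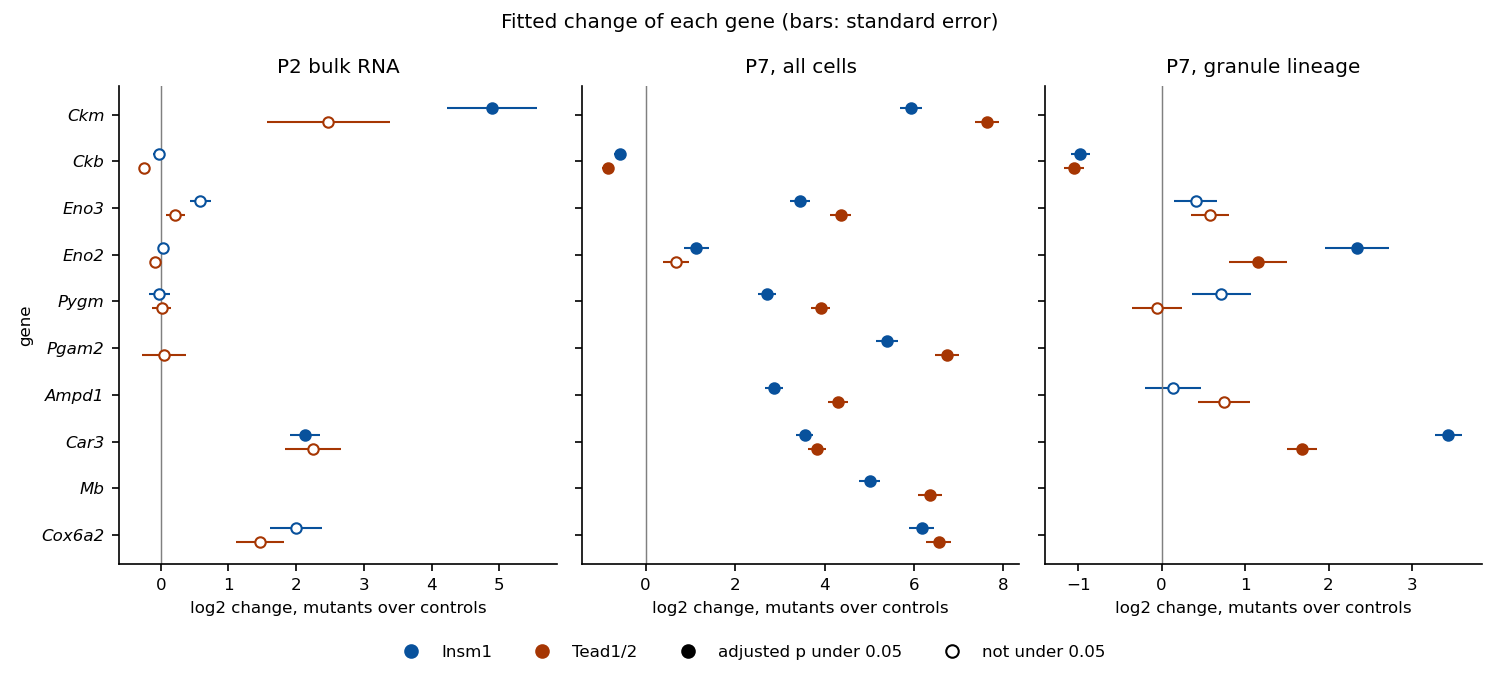
Log2 changes of the 10 genes, mutant against control, with bars of 1 standard error, for both deletions in 3 panels, P2, P7 over all cells and the P7 granule lineage, with filled points for an adjusted p under 0.05 and open points for the others, and with no point for a gene too low to be tested. Ckm reaches 4.89 at P2 and 5.93 at P7 with Insm1, and Ckb is the 1 gene below 0 in both P7 comparisons over all cells.

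The balance of muscle to brain isoform was followed within each library as a log2 ratio of counts (UMIs at P7), with 0.5 added to each count. It is a description with no test. Since the lengths of the transcripts differ, only shifts of the ratio are read. Ckm/Ckb at P2 had a mean of -14.61 ± 0.95 (SD, n = 4) in Insm1 controls and -10.24 ± 0.66 (n = 4) in mutants, a shift of 4.38 with no overlap. The Insm1 controls rest on 0 or 1 Ckm counts, so this shift depends on the added count and was 3.23 with 2 added. For Tead1/2 the shift was 1.66 with overlap. The Tead1/2 overlap came from the library labelled Tead1/2 mutant 4, at -15.77, below each control (-13.73, -12.30 and -13.54), while the other mutants lay at -10.81, -9.45 and -10.09, and without that library the shift was 3.07 with no overlap. At P7 Ckm/Ckb shifted by 6.49 with Insm1, from -8.55 ± 0.12 (n = 2) to -2.06 ± 0.07 (n = 3), and by 8.50 with Tead1/2, from -8.51 ± 0.43 (n = 2) to -0.01 ± 0.54 (n = 3). Over all deposited barcodes these shifts were 5.30 and 6.64. Eno3/Eno2 shifted by 0.56 and 0.27 at P2 and by 2.35 and 3.66 at P7, less than the creatine kinases at each age and in each mutant. Its P2 Tead1/2 groups overlapped, and without the library labelled Tead1/2 mutant 4 the shift was 0.36 with no overlap. Removing the cells marked by Scrublet cut the P7 Insm1 shifts to 4.73 for Ckm/Ckb and 1.02 for Eno3/Eno2, where the groups then overlapped. The Ckm/Ckb ratio was then -3.80 in Insm1 mutant 3 against -1.95 and -1.88 in mutants 1 and 2, and the Insm1 controls rose to -7.26 and -7.29. The Eno3/Eno2 shift with Insm1 at P7 was 3.01 without Insm1 control 1 and 1.68 without control 2.

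**Figure D4:**
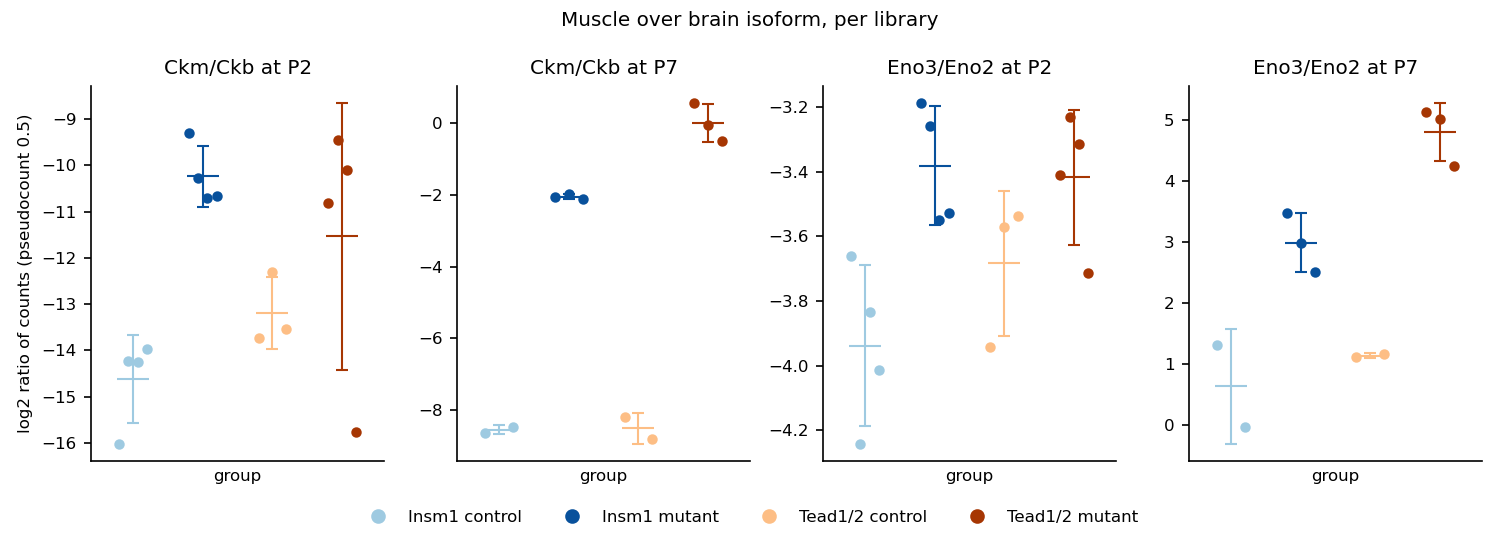
Log2 ratio of muscle to brain isoform (Ckm/Ckb and Eno3/Eno2, vertical axes) in every library at P2 and at P7, by group, with 1 point per library and the mean ± SD. The P7 Ckm/Ckb ratios of mutants, from -2.12 to 0.55, lie above all P7 controls, at -8.81 to -8.20.

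Cell classes at P7 were rebuilt from 45562 cells left after Scrublet removed 34276 of 79838, clustered without the 10 genes and named "-like" from marker lists. Scrublet marked 42.9% of cells, far above a usual doublet share, and the kept cells held 9.34 to 48.0% of a library's UMIs, so class levels describe these cells only. No barcode was shared between libraries. Clusters 17 and 23 were named skeletal muscle-like and held 833 cells of Insm1 mutants and 2277 of Tead1/2 mutants. Cluster 25 (502 and 1285 cells) stayed unnamed because its leading genes were those of another class, although its skeletal muscle markers summed to 29476 to 30819 and 37408 to 41925 CPM. No control library had the 20 cells required for a value in either. Class values are plain CPM of the summed UMIs.

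The muscle-specific genes were high in the muscle-like cells, which in Tead1/2 mutants held most of their UMIs and in Insm1 mutants a share that varied between libraries. Ckm lay at 28.6 to 120 CPM there in Insm1 mutants and 124 to 160 in Tead1/2 mutants, at 24.3 to 36.7 and 26.0 to 36.6 in cluster 25, and at no more than 0.814 in the granule neuron-like and progenitor-like cells of any library. The muscle-like cells held 52.6 to 81.0% of the kept cells' Ckm UMIs in Insm1 mutants and 88.4 to 95.1% in Tead1/2 mutants. Eno3 followed, at 62.9 to 229 and 223 to 268 CPM in muscle-like cells, which held 57.9 to 77.0% and 87.9 to 92.7% of its UMIs. Pygm (30.5 to 117 and 163 to 199 CPM), Ampd1 (12.4 to 81.0 and 103 to 110), Mb (30.5 to 123 and 47.3 to 104), Pgam2 (12.4 to 73.6 and 56.8 to 85.7) and Cox6a2 (18.1 to 71.7 and 56.4 to 63.2) were also found there. In Tead1/2 mutants the muscle-like cells held 81.6 to 96.7% of the kept cells' UMIs of these 5 genes. In Insm1 mutants they held 36.0 to 65.5% for Pygm, 31.7 to 69.1% for Ampd1, 39.6 to 78.3% for Cox6a2, 54.2 to 90.4% for Mb and 65.0 to 77.7% for Pgam2. The lowest Insm1 share of each of these genes, Ckm and Eno3 included, came from Insm1 mutant 3, on 13 to 66 UMIs. Kept cells held 4.98% of that library's Ckm UMIs against 13.2% of all its UMIs. In Insm1 mutants cluster 25 held 3.72 to 50.0% of the kept cells' UMIs of these genes, and unnamed cluster 16 held 0 to 15.9%. With 2000 UMIs drawn from each cell, 5.75% ± 4.68 (SD, n = 3) of muscle-like cells in Insm1 mutants and 13.2% ± 2.14 (n = 3) in Tead1/2 mutants had a Ckm UMI. The neuronal enolase Eno2, low in all classes, had a UMI in 0 of the 833 muscle-like cells of Insm1 mutants, which allows up to 0.36% of cells with a UMI, and in 9 of the 2277 of Tead1/2 mutants (0 to 0.779% per library).

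Granule lineage cells held 77.4 to 84.3% of the kept cells' Ckb UMIs in controls, 37.8 to 46.9% in Insm1 mutants and 32.9 to 36.9% in Tead1/2 mutants. Ckb was also found in other classes, and it lay lower in the granule classes of mutants. In granule neuron-like cells it lay at 104 to 109 CPM in Insm1 controls and 49.6 to 61.8 in mutants, and at 93.0 to 97.8 and 38.0 to 52.8 for Tead1/2. In granule progenitor-like cells it lay at 34.8 to 37.5 against 13.6 to 23.4, and at 29.1 to 35.2 against 14.5 to 21.7. In astroglia-like cells it lay at 125 to 152 CPM in Insm1 controls and 124 to 137 in mutants, which overlap, and at 119 to 138 against 86.6 to 103 with Tead1/2. In muscle-like cells Ckb lay at 37.9 to 76.2 and 16.9 to 26.9 CPM.

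**Figure D5:**
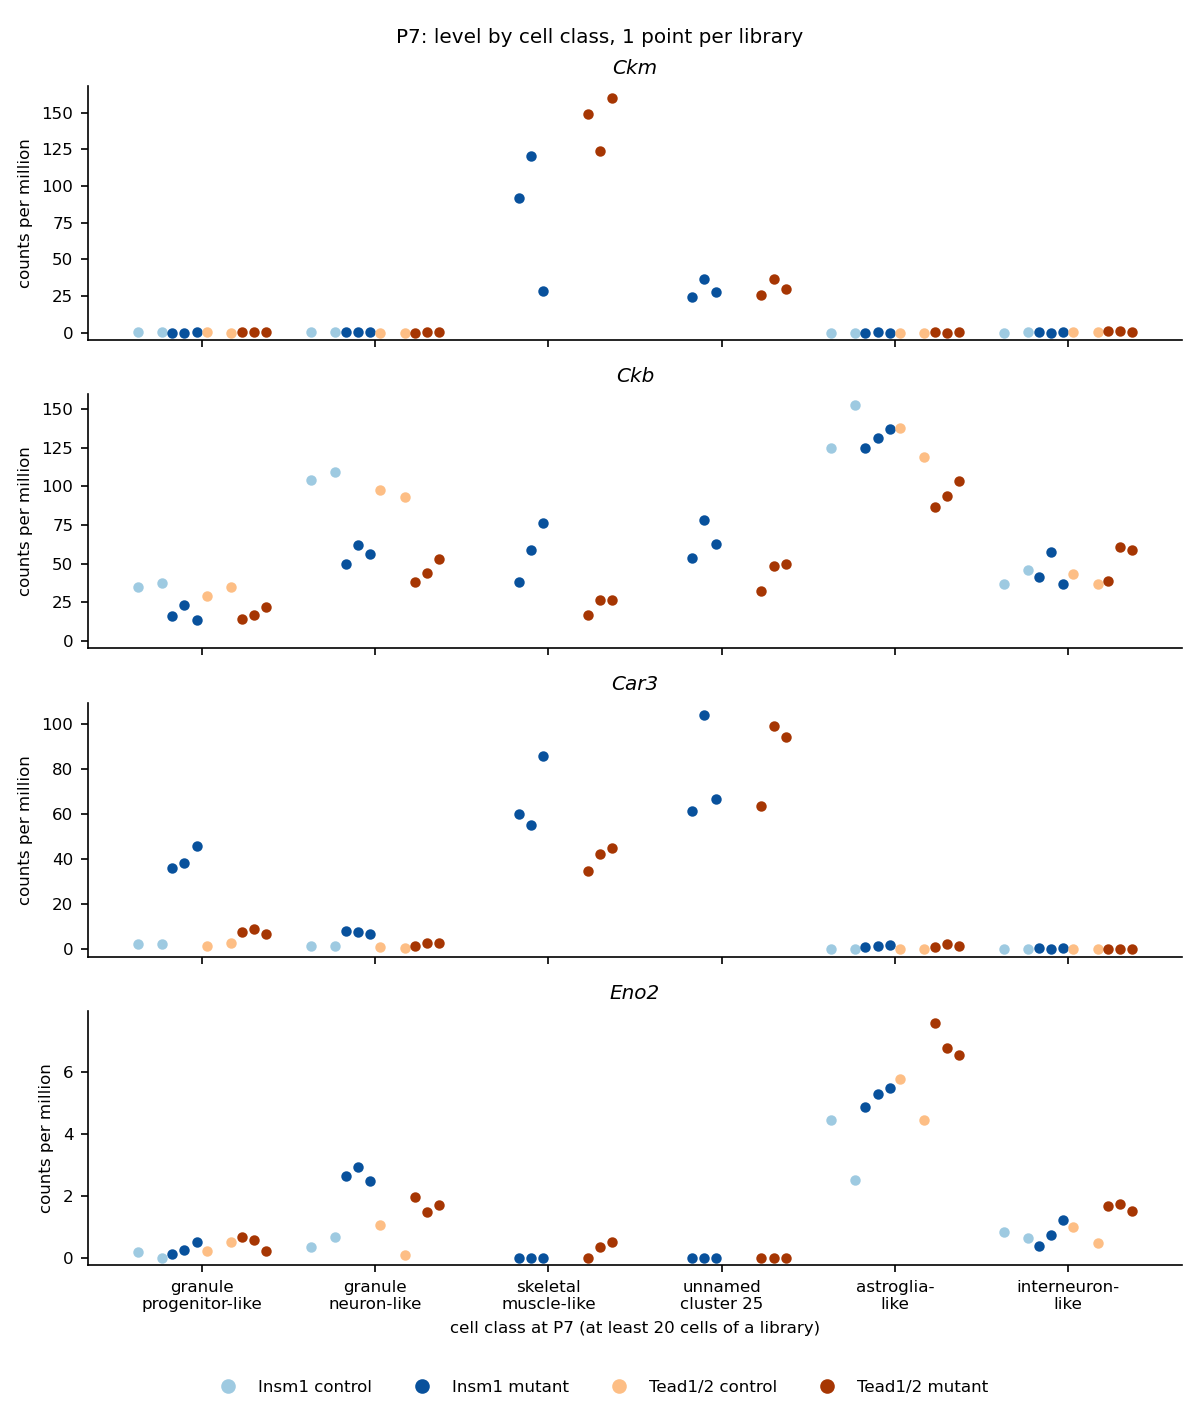
Levels in CPM of Ckm, Ckb, Eno2 and Car3 by cell class and group at P7 in the kept cells, with 1 point per library. Among the classes shown, Ckm is near 0 outside the muscle-like class and cluster 25, while Car3 in granule progenitor-like cells reaches 36.2 to 45.9 CPM in Insm1 mutants.

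Unlike the other muscle genes, Car3 had most of the kept cells' UMIs of Insm1 mutants in granule lineage cells. In granule progenitor-like cells it lay at 2.51 to 2.64 CPM in Insm1 controls and 36.2 to 45.9 in mutants, and at 1.72 to 2.73 and 6.89 to 9.32 for Tead1/2. In granule neuron-like cells it lay at 1.62 to 1.73 against 6.74 to 8.34, and at 0.785 to 1.15 against 1.52 to 3.09. Muscle-like cells held 55.4 to 85.7 CPM of Car3 in Insm1 mutants and 34.9 to 44.9 in Tead1/2 mutants, and cluster 25 held 61.5 to 104 and 63.8 to 99.2. Granule lineage cells held 55.1 to 57.6% of the kept cells' Car3 UMIs in Insm1 mutants but 10.2 to 13.0% in Tead1/2 mutants. With 2000 UMIs drawn from each cell (17 to 38 cells per group were shallower in the Insm1 groups), 6.08 to 6.75% of granule progenitor-like cells in Insm1 mutants had a Car3 UMI against 0.534 to 0.579% in controls. The Tead1/2 values were 1.28 to 1.98% against 0.224 to 0.516%, and without thinning the Insm1 values were 15.1 to 17.2% against 1.41 to 1.72%. Among 159 microglia-like cells of Insm1 mutants none had a Car3 UMI, which at their depth allows up to 1.89% of cells with a UMI. Their median depth of 3576.5 to 5053.5 UMIs was below the 5936.5 to 6553 of the progenitor-like cells. The source of the Car3 UMIs in granule cells was not tested. When only the highest 5% of doublet scores were removed, Car3 lay at 7.74 to 10.6 CPM in the microglia-like cells and at 31.7 to 40.9 in the progenitor-like cells of Insm1 mutants.

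Changes within the granule lineage were tested on UMI sums of the progenitor-like and neuron-like cells together (6831 to 7547 cells per group, TMM-scaled CPM), where 18.5% of 16421 genes were called with Insm1 and 20.7% with Tead1/2. Car3 lay at 2.16 and 2.02 CPM in the Insm1 controls against 21.1, 22.5 and 24.9 in the mutants, and at 1.47 and 1.72 against 4.60, 5.81 and 4.73 for Tead1/2. It rose by 3.44 ± 0.16 (adjusted p = 2.56e-08) and 1.68 ± 0.18 (adjusted p = 1.39e-05). Ckb lay at 76.3 and 77.1 CPM against 36.0, 44.6 and 36.1, and at 62.8 and 65.0 against 25.7, 30.8 and 35.2, changes of -0.97 ± 0.12 (adjusted p = 5.83e-05) and -1.05 ± 0.12 (adjusted p = 2.41e-05). Eno2 lay at 0.285 and 0.373 CPM against 1.60, 1.71 and 1.55 (2.34 ± 0.39, adjusted p = 0.000724), and at 0.637 and 0.304 against 1.31, 1.05 and 0.894 (1.16 ± 0.35, adjusted p = 0.0305). The control values of Eno2 rest on 5 to 7 UMIs per library with Insm1 and 6 to 16 with Tead1/2. Eno2 passed the low-count filter here through the mutants, since among controls only Tead1/2 control 1 reached the filter's level. It could therefore be called only as a rise. The Tead1/2 call of Eno2 was lost with DESeq2 (0.143) and without Tead1/2 control 2 (0.254), mutant 1 (0.0781) or mutant 2 (0.0616). Pygm, Eno3 and Ampd1 were not called with either deletion (0.71, 0.41 and 0.14 with Insm1, adjusted p = 0.204, 0.333 and 0.846, and -0.05, 0.58 and 0.75 with Tead1/2, adjusted p = 0.939, 0.103 and 0.113). Ckm, Mb, Pgam2 and Cox6a2 were too low to be tested there, at 0 to 12 UMIs per library. For each of them all Insm1 mutants lay above both controls, with Ckm at 0.414 to 0.533 CPM against 0.285 and 0.373. Mb lay at 0.296 to 0.414 CPM against 0.163 and 0.224. With Tead1/2 the same held for Ckm, Mb (0.421 to 0.523 against 0.119 and 0.101) and Cox6a2, while Pgam2 overlapped. The share of all genes separated in this way in these cells was not counted, so no result about these genes is drawn from it.

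Skeletal muscle markers were also higher in the granule lineage of both mutants than of controls, and more so with Tead1/2, unlike Car3. They summed to 66.6 to 82.9 CPM in the granule lineage of controls, 165 to 210 in Insm1 mutants and 294 to 942 in Tead1/2 mutants, and their part in the Car3, Ckb and Eno2 results was not tested. These sums were not particular to the granule lineage. In microglia-like cells the markers summed to 140 to 200 CPM in Insm1 mutants and 293 to 915 in Tead1/2 mutants. Microglia-like cells of controls held 179 CPM in the 1 Insm1 library with enough cells and 73.4 to 205 with Tead1/2. The source of the marker UMIs in either class was not tested. Car3 in these cells was at 21.1 to 24.9 CPM in Insm1 mutants and at 4.60 to 5.81 in Tead1/2 mutants. The edgeR test of the difference between the deletions in the granule lineage was added after the data were seen. For Car3 it gave 1.75 ± 0.25 (adjusted p = 0.00506), where 0.871% of genes were called. The clusters behind the granule classes also differed between groups. Progenitor-like cells came from clusters 1 and 3 in controls (70.3% and 25% with Insm1, 75.8% and 19.0% with Tead1/2), from cluster 4 in Insm1 mutants (66.4%) and from clusters 15, 19 and 2 in Tead1/2 mutants (31.5%, 22.6% and 21.9%). Neuron-like cells came mostly from clusters 5, 6 and 0 in controls, and from clusters 11, 27 and 18 (36.5%, 19.6% and 19.3%) or 18 and 27 (39.2% and 21.6%) in mutants.

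The isoform shift inside the granule lineage was unlike that of the whole library. Eno3/Eno2 moved by -1.90 with Insm1, from 2.702 ± 0.54 (n = 2) to 0.80 ± 0.46 (n = 3), and by -0.69 with Tead1/2, from 2.61 ± 0.72 to 1.92 ± 0.40, whereas over all cells it moved by 2.35 and 3.66. These granule ratios rest on few Eno2 UMIs per library: 5 to 7 in Insm1 controls, 13 to 29 in Insm1 mutants, 6 to 16 in Tead1/2 controls and 17 to 23 in Tead1/2 mutants. Kept cells held 10.0% and 2.87% of the Eno2 UMIs of Insm1 controls 1 and 2, against 16.2% and 9.34% of all their UMIs. Ckm/Ckb moved by 1.52 and 2.71 there, on Ckm levels of at most 0.575 CPM. The list counts in these cells stand beside the 18.5% and 20.7% of all genes called, and no list was tested as a whole. Other carbonic anhydrases were called in the same cells: Car4 at 3.24, Car12 at 2.44, Car2 at 2.18 and Car8 at 1.00 with Insm1, 4 of 7 tested (median 1.54), and Car4 at 3.08, Car2 at 1.23, Car12 at 1.22 and Car10 at 1.02 with Tead1/2 (median 1.02). Of the creatine list Gatm alone was called (1.70 and 2.25, 1 of 4 tested). The purine cycle had Ampd3 higher in both (1.298 and 2.45) and the oxidative regulators Esrrg (1.32 and 1.06) and Ppargc1b (1.23 and 2.14) higher and Prkaa2 lower (-0.52 and -0.72). Of the glycogen genes Phkb was called higher (0.47 and 0.25) and Pygb lower with Tead1/2 (-0.33) among 10 tested, glycolysis had 4 of 22 higher and 1 lower in both, and no oxidase or carrier isoform of 6 was called.

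The genes most like Ckm across the 15 P2 libraries, by Pearson correlation of log2 CPM over 20837 genes, were Vgll2 (r = 0.962), Rbm24 (0.957), Bace2 (0.957), Gm28653 (0.942) and Tnni2 (0.940). Those most like Ckb were Maged1 (0.912), Nelfcd (0.897), Tkt (0.889), Tuba1a (0.887) and Acot7 (0.883). These values describe 15 libraries that share batches and group differences, and no test was made.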

How the data were processed

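RNA of 15 P2 cerebella was measured in bulk and cells of 10 P7 cerebella with the Parse Evercode kit; accessibility and binding data were not analysed here. The authors deposited expected counts per gene from RSEM for P2, made with Trim Galore 0.6.3, STAR 2.7.9a and RSEM 1.3.3 on GRCm38.p6 per the submitters' processing notes; 6.85 to 8.79% of the values are not whole, and they were rounded. 92 spike-in entries were left out of 55665. The authors deposited whole-number UMI counts per cell for P7, with gene tables that name GRCm39. The 2 bulk tables were matched to samples by column name, since each is named for the other deletion, and P7 libraries by the names in the deposited cell table, because all P7 libraries form 1 sample in the labels.

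Cells with at least 1000 UMIs, 500 genes and under 15% mitochondrial UMIs were summed per library, doublets included. edgeR 4.0.16 (R 4.3.3) quasi-likelihood tests used TMM factors, filterByExpr and Benjamini-Hochberg adjustment over all genes tested, with calls at an adjusted p under 0.05; each P2 deletion was fitted alone, the P7 groups together. Clusters (scanpy 1.11.5) used 2000 variable genes without the 10 members, 30 components, 15 neighbours and Leiden resolution 1. Alternatives were DESeq2 1.42.0, no filter, a replicate block, terms for sex and dissection, each library left out, doublet settings and other clusterings. P-values measure the spread between individual pups. Replicate pairs differed beyond sampling noise (chi-square per degree of freedom 10.0 to 82.0). The standard error of an edgeR change is the absolute log2 change divided by the square root of the quasi-likelihood F statistic. It is thus worked back from the test and is not a separate estimate. Intervals cover counting error only.

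The 10 genes and the lists were chosen with earlier results of these data known. All 10 are named throughout, with up to 4 called genes per list and direction and the 5 genes most like Ckm and Ckb. The tests were checked on simulated counts, drawn with the trend of spread over expression level and not with each gene's own spread. Changed genes were picked at random among all genes that passed the filter. The shares recovered therefore do not describe low-count genes such as Ckm and Cox6a2, or genes that did not pass the filter. In the P2 Insm1 design (19359 genes), 77% of genes changed by a factor of 2 and 100% of those changed by 4 were recovered. In the P2 Tead1/2 design (19938 genes) 81.8% and 99% were recovered. At P7 with Insm1 it was 68.4% and 96% over all cells (24113 genes) and 75.8% and 96% in the granule lineage (16127 genes). No simulated library stood apart from its group. The Tead1/2 shares therefore do not describe the fit that holds the library labelled Tead1/2 mutant 4.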

Additional observations from a re-analysis of the deposited data

Results flagged for a closer look

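Of 36 sets of 4 P2 libraries, 3 held a value far from the other 3, where chance gives about 1 in 20. Ckm was at 0 CPM in Insm1 control 1 against 0.0269 to 0.0303 in the other controls, a difference of 1 count. It was at 1.31 CPM in Insm1 mutant 1 against 0.433 to 0.551 in the other mutants. The Ckm/Ckb log2 ratio was -16.02 in Insm1 control 1, from the same count of 0.

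At P7 the change of Pygm and of Ampd1 over all cells differed between the deletions, by -1.21 and -1.43 on the log2 scale, with the smaller rise in Insm1 mutants. In the granule lineage the change of Car3 differed by 1.75, with the larger rise in Insm1 mutants. The Car3 test was chosen after the data were seen.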

How the results depend on the processing

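The 135 genes called with Insm1 at P2 became 313 with DESeq2, 212 without the filter, 88 with a term for sex, and 64 to 132 with 1 library left out (under 90 without Insm1 control 1, 3 or 4 or mutant 2 or 4). The 0 with Tead1/2 became 1026, 1287 and 3 under the first 3 settings, 4 with all 15 libraries and 0 to 646 with 1 left out (646 without the library labelled mutant 4, 14 and 20 without controls 2 and 3). The 0 for the P2 difference became 14, 11 and 0 to 8 (8 without Tead1/2 control 2). The 906 for the P7 difference became 2022 with DESeq2, 227 with sex, 538 without Scrublet-marked cells, 143 in granule sums and 195 to 1187 with 1 left out (195 without Tead1/2 control 2). With 1 library left out, granule lineage counts ran from 1948 to 3498 with Insm1 (lowest without Insm1 control 2) and from 2144 to 3824 with Tead1/2 (lowest without Tead1/2 control 1).

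Replicate numbers showed no clear pairing at P2, where deviations of same-numbered libraries correlated at -0.131 to 0.227. There 2 of 8 Insm1 and 0 of 6 Tead1/2 libraries correlated best with the library of their own number. At P7 the correlations were -0.124 to 0.0365. With 2 controls per allele at P7 the controls' deviations mirror each other, so this check cannot judge pairing there. Numbers at P7 also go with the dissection. The replicate block gave 64 genes with Insm1, 236 with Tead1/2 and 1 for the difference at P2. With Tead1/2 it put Car3 at 2.53 (edgeR adjusted p = 5.33e-05), Ckm at 2.84 (0.0176) and Cox6a2 at 1.69 (0.0360) past the threshold. No Tead1/2 control has the number of the library labelled Tead1/2 mutant 4, so the block fits that library on its own. These calls are therefore not separate from those made without it.

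Among the 10 genes, 1026 of 1114 values kept direction and call, 25 lost the call, 36 gained it and 27 changed sign, of which Car3 in the granule difference (1.75) was called. Pygm changed sign with Insm1 at P2 (0.11 with sex, -0.095 to 0.078 with 1 library out), with Tead1/2 at P2 (-0.052 to 0.099), in the P2 difference (-0.13 to 0.063), in granule sums of the P7 difference (0.76) and with Tead1/2 in the granule lineage (0.13 with the block, 0.11 with muscle markers left out of clustering, 0.16 with 5% of doublets removed, -0.24 to 0.23 with 1 out). With 1 library out, signs also changed for Ckb with Insm1 at P2 (-0.075 to 0.024), Eno2 (-0.16 to 0.022) and Pgam2 (-0.068 to 0.16, and -0.014 with sex) with Tead1/2 at P2, Car3 in the P2 difference (-0.41 to 0.046), Cox6a2 in the P7 difference (-0.80 to 0.0069) and Ampd1 with Insm1 in the granule lineage (-0.038 to 0.27).

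The Ckm/Ckb shift with Insm1 at P2 was 3.23 with a pseudocount of 2. At P7 it was 5.30 over all deposited barcodes and 4.73 without Scrublet-marked cells, and 6.64 with Tead1/2 over all barcodes; Eno3/Eno2 with Insm1 was 1.02 without marked cells. At 1000 UMIs, 3.62% and 0.585% of progenitor-like cells of Insm1 and Tead1/2 mutants had a Car3 UMI and 7.43% of Tead1/2 muscle-like cells a Ckm UMI, and Ckm there was 76.5 CPM with 5% of doublets removed. The cause of these shifts was not tested. Ckm, Mb, Pgam2 and Ampd1 at P2 rest on few counts, which limits them.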
